A study of Mus musculus with 4 samples.

Results

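The genes described here are 10 members of the ATF4 amino acid stress response, out of 13085 genes measured by RNA-seq in 3T3-L1 cells, a murine preadipocyte line. They are Atf4, Ddit3, Asns, Trib3, Chac1, Psat1, Phgdh, Sesn2, Slc3a2 and Slc7a5. They were chosen by name, as the rows whose RefSeq identifiers belong to these symbols, and each symbol had 1 row. The series holds 4 stable lines with 1 sample each, and the effect of CACUL1 in adipogenesis was the question behind them. FLAG-CACUL1 cells overexpress CACUL1 and FLAG cells carry the FLAG vector alone. In sh-CACUL1 cells a hairpin RNA depletes CACUL1, and in sh-Luc cells the hairpin is directed against luciferase. Differentiation of all 4 lines was initiated with the same adipogenic mixture in medium with 10% serum (rosiglitazone at 5 µM, IBMX at 0.5 mM, dexamethasone at 1 µg/ml and insulin at 5 µg/ml). After this initiation, medium with 10% serum and insulin at 5 µg/ml was added, and the lines were harvested on day 8. The FLAG lines were selected with G418 and the hairpin lines with hygromycin B, so vector and drug cannot be told apart from the line in any comparison across the pairs. Whether a line was a pool of colonies or 1 clone is not given in the sources used here.

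ATF4 is a basic leucine zipper transcription factor whose mRNA is translated more efficiently when the translation initiation factor eIF2 is phosphorylated. The kinases that phosphorylate eIF2 sense amino acid shortage, endoplasmic reticulum stress, heme deficiency and double-stranded RNA, and the program that follows is called the integrated stress response. Its targets supply amino acids by synthesis and uptake, and others regulate redox balance, growth signaling or cell death. Because much of the control of ATF4 is on translation, its mRNA level does not report the amount of ATF4 protein, which was not measured in these data.

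Expression is given as FPKM, the fragments of a transcript per kilobase of its length, adjusted for how many fragments of the sample were mapped, so levels of different genes can be compared on this scale. There were no replicates, and no difference between lines was tested. A ratio of FPKM is given with its 95% counting interval, computed from fragment numbers estimated from the FPKM values themselves. The interval covers counting error and not variation between cultures. A gene was counted as past 2-fold when its ratio of FPKM + 1 was at least 1 in either direction on the log2 scale. No significance is attached to that cut-off.

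The samples differed in depth and in the FPKM scale. The estimated depth was 14200000 to 15000000 fragments in 3 samples and 24000000 in sh-Luc. The median log2 ratio of all genes was 0.09 for FLAG-CACUL1 against FLAG, -0.30 for sh-CACUL1 against sh-Luc and -0.18 for FLAG against sh-Luc. After median-of-ratios scaling, which divides each sample by its typical ratio to the mean of the samples, these medians were 0.01, 0.01 and 0.0. Cacul1 itself was at 9.61 FPKM in FLAG and 11.8 in FLAG-CACUL1, compared with 10.2 in sh-Luc and 5.39 in sh-CACUL1 cells, a log2 ratio of 0.27 for overexpression and -0.82 for knockdown (0.14 and -0.40 after scaling). Of 10 adipocyte markers 9 had a row, and their FPKM summed to 8442.5 in FLAG and 882.2 in FLAG-CACUL1, compared with 1688.8 in sh-Luc and 17528.9 in sh-CACUL1 cells. Fabp4 was the largest part in FLAG (4991.0), sh-Luc (1020.1) and sh-CACUL1 (12543.3), and Lpl in FLAG-CACUL1 (511.8). Between FLAG and sh-CACUL1 the markers were split. Adipoq, Fabp4, Cfd and Cidec were higher in sh-CACUL1, and Plin1, Lpl, Pparg, Cebpa and Slc2a4 were higher in FLAG. Of the defining adipocyte markers, Slc2a4 (GLUT4) was near 0 in FLAG-CACUL1 at 0.101 FPKM and Cebpa was at 0.421 in sh-Luc. The 6 measured preadipocyte or fibroblast markers of 7 summed to 2697.5, 3108.2, 1268.7 and 267.6, respectively. Most of these sums was Col1a1 (2412.1, 2424.1, 1095.2 and 156.3), and between the hairpin lines Dlk1 (0.22 in sh-Luc, 21.2 in sh-CACUL1) and Thy1 (0.663 and 34.3) went the opposite way. Between the FLAG lines Col1a1 was nearly level. Pdgfra (13.0 in FLAG, 40.9 in FLAG-CACUL1), Thy1 (42.4 and 144.2), Ly6a (97.9 and 346.7) and Pdgfrb (34.8 and 112.9) were higher in FLAG-CACUL1. Dlk1 (97.2 and 39.4) was lower there. The 4 measured macrophage markers of 6 summed to between 6.41 in sh-CACUL1 and 110.5 in FLAG-CACUL1, the only measured endothelial marker of 5, Pecam1, stayed at or below 0.301, and the 2 measured muscle markers of 5 summed to between 1.28 and 9.01. Of the macrophage markers, Cd14 (15.0 in FLAG, 42.2 in FLAG-CACUL1) and Lyz2 (8.12 and 66.5) were higher in FLAG-CACUL1. Cd68 (16.2 and 1.44) and Csf1r (0.607 and 0.397) were lower there. The part of differentiation in the values below was not tested. In bulk RNA, fewer cells of a type and less RNA per cell cannot be told apart.

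All 10 genes were expressed in every line, at 6.22 to 820.5 FPKM and 183 to 10598 estimated fragments. The spread over the lines differed widely between them. The highest line exceeded the lowest by 12.2-fold for Ddit3 and 8.91-fold for Trib3, by 4.79-fold for Slc7a5, 4.29-fold for Sesn2 and 4.09-fold for Chac1, and by 3.67-fold for Phgdh. It did so by 2.54-fold for Psat1, 2.19-fold for Slc3a2, 1.57-fold for Atf4 and 1.22-fold for Asns. As deposited, Atf4 and its target Asns were thus the flattest of the set, and Ddit3 and Trib3 spread most.

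**Figure D1:**
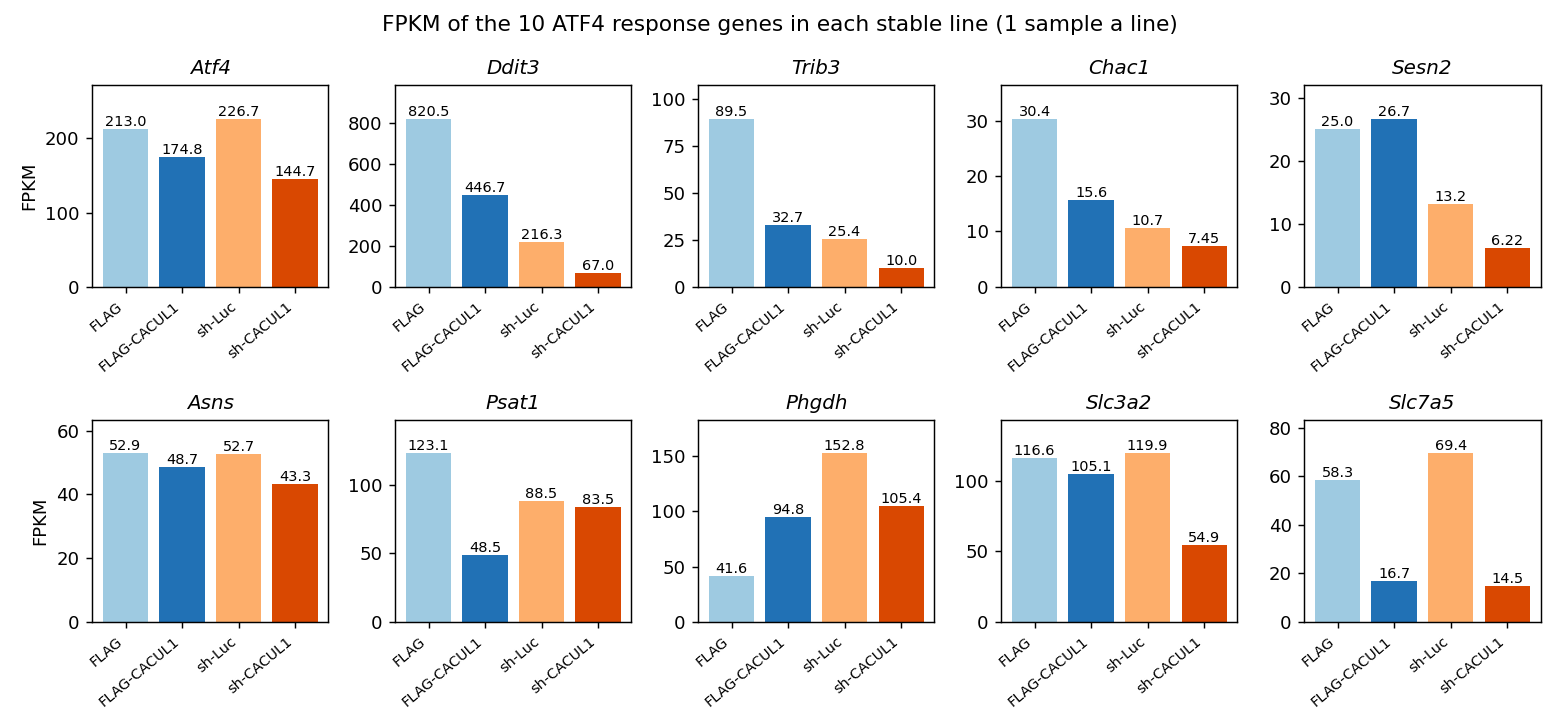
FPKM of the 10 genes in the 4 lines, with 1 sample per line, 1 panel per gene and a linear axis from 0 in each panel. Bars are the deposited values, and Ddit3 ran from 820.5 in FLAG to 67.0 in sh-CACUL1 while Asns stayed between 43.3 and 52.9.

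The transcription factors come first. Atf4 (NM_009716 and NM_001287180, chromosome 15 from 80255184 to 80257545 in GRCm38) was at 213.0 FPKM in FLAG and 174.8 in FLAG-CACUL1, compared with 226.7 in sh-Luc and 144.7 in sh-CACUL1 cells. Both CACUL1-manipulated lines were below both controls. The ratio was 0.821 (interval 0.788 to 0.855) for overexpression and 0.638 (0.614 to 0.663) for knockdown. On the log2(FPKM + 1) scale this was -0.28 and -0.64, and after median-of-ratios scaling -0.42 and -0.17, so the ordering of these ratios depended on the scaling while both stayed below 0. Atf4 was among the abundant transcripts in each line, and 1.99% to 2.93% of genes had a higher FPKM.

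Ddit3 (NM_007837 and NM_001290183, chromosome 10 from 127290793 to 127296291) encodes CHOP, a partner of C/EBP factors that is induced downstream of ATF4, promotes cell death under prolonged endoplasmic reticulum stress and is known to restrain adipocyte differentiation. It had the widest range. Its FPKM was 820.5 in FLAG and 446.7 in FLAG-CACUL1, compared with 216.3 in sh-Luc and 67.0 in sh-CACUL1 cells. Each line differed from its neighbor in this order by more than the counting interval. FLAG-CACUL1 was at 0.544 of FLAG (0.527 to 0.562), and sh-CACUL1 was at 0.310 of sh-Luc (0.288 to 0.333). The fold between the controls was larger than either except after quantile normalization, with FLAG at 3.79 times sh-Luc (3.66 to 3.93) as deposited. The log2(FPKM + 1) ratio was -0.88 for overexpression and -1.68 for knockdown, and -1.01 and -1.21 after scaling.

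Trib3, Chac1 and Sesn2 act on stress signaling and redox state. Trib3 (NM_175093, chromosome 2 from 152337425 to 152344060) encodes a pseudokinase that binds ATF4 and AKT and limits the response that induced it. It was at 89.5 FPKM in FLAG and 32.7 in FLAG-CACUL1, compared with 25.4 in sh-Luc and 10.0 in sh-CACUL1 cells, the same order as Ddit3. FLAG-CACUL1 had 0.365 of the FLAG level (0.339 to 0.394) and sh-CACUL1 had 0.395 of the sh-Luc level (0.348 to 0.448). The log2(FPKM + 1) ratios were -1.43 and -1.26, past 2-fold in both. After scaling they were -1.56 and -0.81, so the knockdown no longer passed 2-fold.

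Chac1 (NM_026929, chromosome 2 from 119351242 to 119354326) encodes a gamma-glutamylcyclotransferase that degrades glutathione. It was at 30.4 FPKM in FLAG, 15.6 in FLAG-CACUL1, 10.7 in the sh-Luc control and 7.45 in sh-CACUL1, again the same order. The log2(FPKM + 1) ratio was -0.92 for overexpression (FPKM ratio 0.513, 0.452 to 0.584) and -0.47 for knockdown (0.694, 0.578 to 0.824). After median-of-ratios scaling the first was -1.05 and the second -0.05, and after quantile normalization the second was -0.02.

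Sesn2 (NM_144907, chromosome 4 from 132492804 to 132510456) encodes a leucine-binding protein that restrains mTORC1 through GATOR2. It was at 25.0 FPKM in FLAG and 26.7 in FLAG-CACUL1, compared with 13.2 in sh-Luc and 6.22 in sh-CACUL1 cells. Both FLAG lines lay above both hairpin lines. The FLAG lines did not differ beyond counting error, with a ratio of 1.07 (0.988 to 1.15), and the sign of their log2(FPKM + 1) ratio turned from 0.09 to -0.04 with scaling. In the hairpin lines the FPKM ratio was 0.473 (0.416 to 0.535), a log2(FPKM + 1) ratio of -0.97, or -0.55 after scaling.

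**Figure D2:**
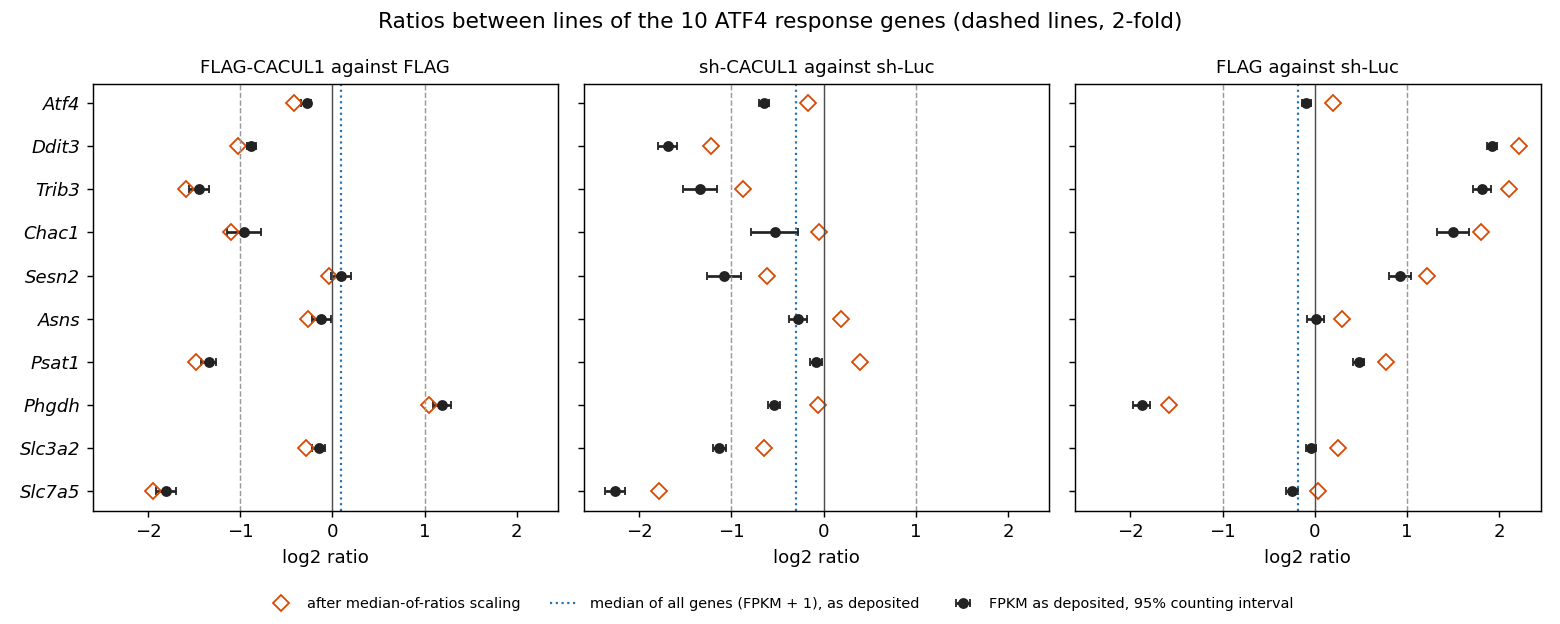
Log2 ratio of FPKM of the 10 genes for FLAG-CACUL1 against FLAG, sh-CACUL1 against sh-Luc and FLAG against sh-Luc, 1 panel each. Points are deposited values with the 95% counting interval, open diamonds are the values after median-of-ratios scaling, and the vertical lines mark 0, 2-fold and the median of all genes. Slc7a5 was far to the left in both CACUL1 panels and near 0 between the controls.

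The enzymes of amino acid synthesis had different profiles. Asns (NM_012055, chromosome 6 from 7675165 to 7693209) encodes asparagine synthetase, which amidates aspartate with glutamine as donor and is a textbook ATF4 target. It was at 52.9 FPKM in FLAG and 48.7 in FLAG-CACUL1, compared with 52.7 in sh-Luc and 43.3 in sh-CACUL1 cells. As deposited the controls did not differ beyond counting error (1.01, 0.943 to 1.07). Their log2(FPKM + 1) ratio, FLAG against sh-Luc, was 0.01, and it became 0.30 after median-of-ratios scaling. The ratio was 0.919 (0.855 to 0.990) for overexpression and 0.823 (0.769 to 0.880) for knockdown, and the log2(FPKM + 1) ratio of the knockdown turned from -0.28 to 0.19 after median-of-ratios scaling.

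Phgdh and Psat1 encode the first enzymes of serine synthesis from a glycolytic intermediate, a dehydrogenase and the aminotransferase that follows it. Phgdh (NM_016966, chromosome 3 from 98313171 to 98339969) was at 41.6 FPKM in FLAG and 94.8 in FLAG-CACUL1, compared with 152.8 in sh-Luc and 105.4 in sh-CACUL1 cells. It was lowest in FLAG, where most of the other genes of the set were high, and it was the only member past 2-fold upward with CACUL1 overexpression (FPKM ratio 2.28, 2.12 to 2.45, log2(FPKM + 1) ratio 1.17, and 1.03 after scaling). In the hairpin lines its FPKM ratio was 0.690 (0.661 to 0.720), and its log2(FPKM + 1) ratio was -0.53 as deposited and -0.06 after scaling.

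Psat1 (NM_001205339 and NM_177420, chromosome 19 from 15905123 to 15925059) was at 123.1 FPKM in FLAG and 48.5 in FLAG-CACUL1, compared with 88.5 in sh-Luc and 83.5 in sh-CACUL1 cells. Only FLAG-CACUL1 stood apart on the low side. The ratio to FLAG was 0.394 (0.372 to 0.417), a log2(FPKM + 1) ratio of -1.33 (-1.46 after scaling). The hairpin lines differed little, with an FPKM ratio of 0.944 (0.902 to 0.987), and the sign of the log2(FPKM + 1) ratio turned from -0.08 to 0.39 after median-of-ratios scaling and 0.11 after quantile normalization. The neighboring steps of the same pathway thus went opposite ways past 2-fold in FLAG-CACUL1 against FLAG. Against sh-Luc both were lower in FLAG-CACUL1, with log2(FPKM + 1) ratios of -0.68 for Phgdh and -0.85 for Psat1. Phgdh divided by Psat1, a ratio within a sample that a single factor per sample does not alter, was 0.338 in FLAG and 1.95 in FLAG-CACUL1, compared with 1.73 in sh-Luc and 1.26 in sh-CACUL1 cells.

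Slc3a2 and Slc7a5 encode the heavy and light chain (CD98 and LAT1) of a heterodimer that exchanges intracellular glutamine for leucine and other large neutral amino acids. Slc7a5 (NM_011404, chromosome 8 from 121881146 to 121907686) is the transport subunit. Its FPKM was 58.3 in FLAG and 16.7 in FLAG-CACUL1, compared with 69.4 in sh-Luc and 14.5 in sh-CACUL1 cells. Both manipulated lines were low and both controls were high. The ratio was 0.286 (0.264 to 0.309) for overexpression and 0.209 (0.193 to 0.225) for knockdown. These log2(FPKM + 1) ratios, -1.75 and -2.18, were the lowest of the 10 genes in either comparison, and after scaling they were -1.88 and -1.73. Between the controls the log2(FPKM + 1) ratio was -0.25 as deposited and 0.04 after scaling.

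Slc3a2 (NM_008577 and NM_001161413, chromosome 19 from 8706882 to 8723369) is the chaperone subunit and pairs with several light chains. It was at 116.6 FPKM in FLAG and 105.1 in FLAG-CACUL1, compared with 119.9 in sh-Luc and 54.9 in sh-CACUL1 cells. As deposited the controls did not differ beyond counting error (FLAG at 0.972 of sh-Luc, 0.934 to 1.01). The sign of their log2(FPKM + 1) ratio turned from -0.04 to 0.25 after median-of-ratios scaling. In sh-CACUL1 the level was 0.457 of sh-Luc (0.435 to 0.482), a log2(FPKM + 1) ratio of -1.11 that became -0.65 after scaling. In FLAG-CACUL1 the FPKM ratio was 0.902 (0.861 to 0.944). Slc7a5 per Slc3a2 was 0.500 in FLAG and 0.579 in sh-Luc, but 0.159 in FLAG-CACUL1 cells and 0.264 in sh-CACUL1 cells.

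The promoters of 9 of the 10 genes were searched for TGATGNAA, the core letters of the C/EBP-ATF response element, on both strands from 250 bases before to 50 bases after the start (RefSeq, GRCm38.p6). The stretches with a match are printed because dimers of ATF4 with C/EBP factors are known to bind this element. It was found in 3 of these 9 genes (33.3%), in 7 of 25 other ATF4 targets with a window (28.0%) and in 1219 of all 27025 genes with a window (4.51%). Counted by window, of which a gene can have several, it was in 1304 of 32851 (3.97%). Capitals mark the match, and each stretch is written 5′ to 3′ on the strand of the gene. The Asns match lies at -23 on the strand of the gene, the Chac1 match at -193 on the opposite strand, and the Trib3 match at 15 bases past the start on the opposite strand. No other motif was searched. A match describes letters and not binding.
Asns, chr6:7693210-7693278, minus strand: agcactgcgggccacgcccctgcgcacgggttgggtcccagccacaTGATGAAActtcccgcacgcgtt
Chac1, chr2:119351003-119351102, plus strand: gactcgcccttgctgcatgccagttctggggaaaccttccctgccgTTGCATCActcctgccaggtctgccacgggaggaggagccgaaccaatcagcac
Trib3, chr2:152344028-152344057, minus strand: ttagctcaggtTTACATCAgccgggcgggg

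The 3 genes with this element had different profiles, with Asns within 1.22-fold over all lines and Trib3 and Chac1 at 8.91-fold and 4.09-fold. Ddit3, Sesn2, Psat1, Phgdh, Slc3a2 and Atf4 had no match in this window.

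Dividing each gene by Atf4 within the same sample gave values that a single factor per sample, as in median-of-ratios scaling, does not alter. Quantile normalization can alter them, and the values here are from the deposited FPKM. Ddit3 per Atf4 was 3.85 in FLAG and 2.55 in FLAG-CACUL1, compared with 0.954 in sh-Luc and 0.463 in sh-CACUL1 cells, an 8.32-fold range. In FLAG cells the Ddit3 transcript thus exceeded that of Atf4, and in sh-CACUL1 cells it was below it. Trib3 per Atf4 went the same way, from 0.420 in FLAG to 0.187, 0.112 and 0.0694. Chac1 per Atf4 was 0.143 and 0.0894 in the FLAG lines, and 0.0474 and 0.0515 in sh-Luc and sh-CACUL1. Sesn2 per Atf4 was 0.117 and 0.153 in the FLAG lines, and 0.0580 and 0.0430 in the hairpin lines. Asns per Atf4 stayed between 0.232 and 0.299. Phgdh per Atf4 ran opposite to Ddit3, at 0.195, 0.542, 0.674 and 0.729. Trib3 per Ddit3 covered a 2.05-fold range (0.0732 to 0.150), less than either gene alone.

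**Figure D3:**
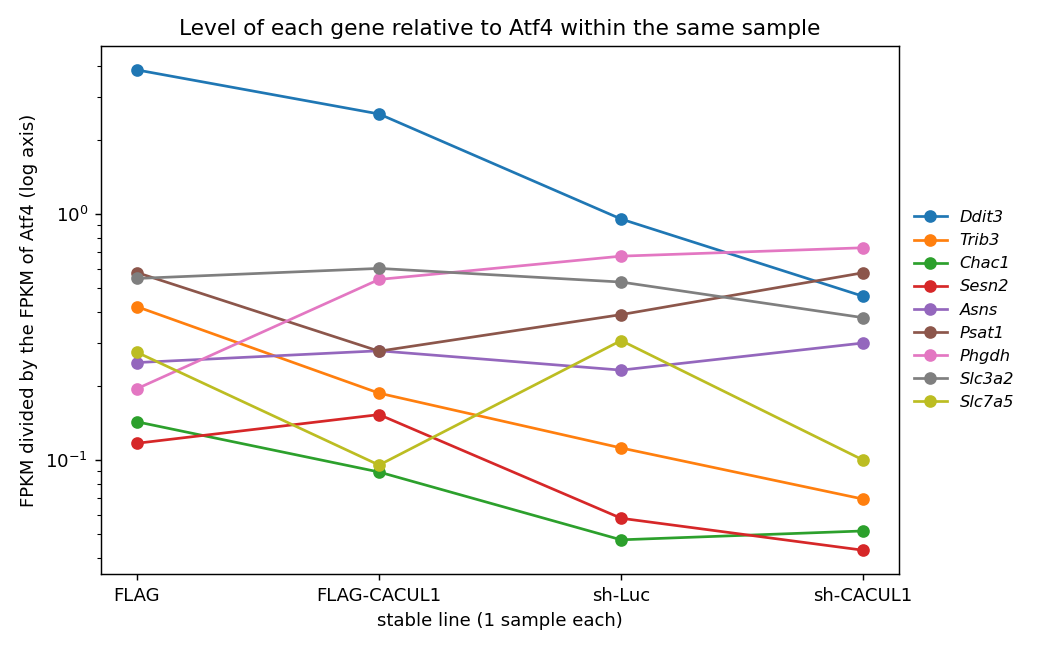
FPKM of 9 genes divided by the FPKM of Atf4 in the same sample, on a log axis, for the 4 lines with 1 sample each. Points are single values and lines only join the points of a gene. Ddit3 ran from 3.85 in FLAG to 0.463 in sh-CACUL1, Phgdh from 0.195 to 0.729, Asns was flat, and Slc7a5 was low in both lines with altered CACUL1.

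With CACUL1 overexpression 4 of the 10 genes were past 2-fold, 1 upward (Phgdh) and 3 downward (Trib3, Psat1 and Slc7a5). Among all genes 14.7% were past 2-fold, 7.51% upward and 7.22% downward. Of the 10 genes 8 were below 0 on the log2(FPKM + 1) scale, against 41.3% of all genes, and the median of the 10 was -0.58 against 0.09 for all genes. After median-of-ratios scaling Ddit3 and Chac1 also passed 2-fold downward (1 upward, 5 downward), and over all genes the split moved from 983 upward and 945 downward to 755 (5.77%) and 1169 (8.93%), 14.7% in all.

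With CACUL1 knockdown 4 genes were past 2-fold, all downward (Ddit3, Trib3, Slc3a2 and Slc7a5), where 21.3% of all genes were past 2-fold, 4.94% upward and 16.4% downward. All 10 were below 0 as deposited, with a median of -0.81, but so were 68.7% of all genes, whose median was -0.30. After median-of-ratios scaling 8 were below 0 with a median of -0.36, and Ddit3 and Slc7a5 stayed past 2-fold downward. Over all genes the split then moved from 647 upward and 2141 downward to 1231 (9.41%) and 975 (7.45%), 16.9% in all.

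The comparisons of each line with its own control share no sample. As deposited 8 of the 10 genes were below 0 in both, all but Phgdh and Sesn2, against 25.3% of all genes. After median-of-ratios scaling there were 7, without Asns and Psat1 and with Sesn2, against 20.8%. At least 2-fold lower in both were Trib3 and Slc7a5 as deposited (0.802% of all genes), Ddit3 and Slc7a5 after median-of-ratios scaling (0.588%) and Slc7a5 after quantile normalization (0.527%). Slc7a5 was the only member on this side under each of the 3 scales. No member was past 2-fold in opposite directions, a pattern that 1.69% of all genes showed with overexpression downward and 3.02% with overexpression upward.

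**Figure D4:**
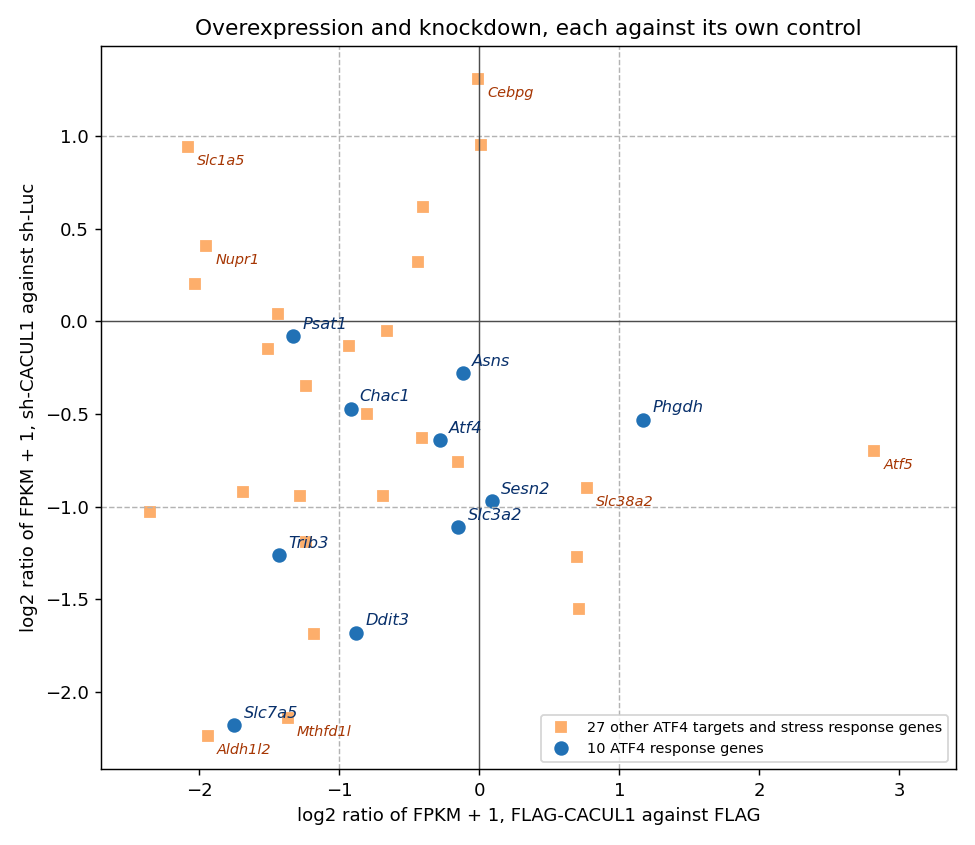
Log2 ratio of FPKM + 1 for FLAG-CACUL1 against FLAG (horizontal) and sh-CACUL1 against sh-Luc (vertical), for the 10 genes (blue circles) and 27 other ATF4 targets and stress response genes (orange squares), with dashed lines at 2-fold. Of the 10 genes 8 lie in the lower left quadrant, Slc7a5 farthest out at -1.75 and -2.18, and Phgdh lies to the right at 1.17 and -0.53.

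The control lines also differed from each other. In FLAG against sh-Luc 3 genes were past 2-fold upward (Ddit3, Trib3 and Chac1) and Phgdh was past 2-fold downward, where 21.0% of all genes were past 2-fold (8.58% upward, 12.4% downward). FPKM ratios were 3.79 for Ddit3, 3.52 for Trib3 (3.29 to 3.77), 2.83 for Chac1 (2.51 to 3.20) and 0.272 for Phgdh (0.256 to 0.290). Sesn2 was at 1.90 (1.75 to 2.06) and joined the upward genes after median-of-ratios scaling, when the split of all genes moved from 1123 upward and 1627 downward to 1565 and 937 of 13085, 19.1% in all. For Ddit3, Trib3, Chac1 and Phgdh, then, the FPKM + 1 ratio between the controls was farther from 0 on the log2 scale than the ratio of each line to its own control, except that quantile normalization put Ddit3 at 1.57 between the controls and -1.62 with knockdown. Against the other control, FLAG-CACUL1 was above sh-Luc for Ddit3 (log2(FPKM + 1) ratio 1.04), Trib3 (0.35) and Chac1 (0.50), and below it for Phgdh (-0.68). The same ratio against FLAG had the opposite sign for each of these 4 genes. The values of Slc7a5 did not turn with the control, at -1.99 for FLAG-CACUL1 against sh-Luc and -1.94 for sh-CACUL1 against FLAG. Phgdh in sh-CACUL1 turned from -0.53 against sh-Luc to 1.32 against FLAG.

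In the order of the 4 lines sh-CACUL1 was lowest for 8 genes as deposited (against 45.1% of genes expressed at 1 FPKM or more in all samples) and for 5 after median-of-ratios scaling (against 29.9%). These 5 were Ddit3, Trib3, Chac1, Sesn2 and Slc3a2. FLAG was highest for 5 genes as deposited (22.8%) and for 9 after scaling (27.5%), all but Phgdh. After quantile normalization FLAG was highest for 4 (23.4%) and sh-Luc for 5 (25.7%). No member was highest in sh-CACUL1 on any of the 3 scales. Of the expressed genes 16.2% were highest there as deposited, 30.3% after median-of-ratios scaling and 31.5% after quantile normalization.

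A list of 30 other ATF4 targets and stress response genes, of which 27 had a row, gave the wider setting. With overexpression 13 were past 2-fold downward (7.22% of all genes) and 1 upward (7.51% of all genes), with a median of -0.93 against 0.09 for all genes. Those downward include Slc1a5 (-2.08), a glutamine transporter at 147.2 FPKM in FLAG and 34.1 in FLAG-CACUL1, and Nupr1 (-1.95), a stress-induced chromatin protein at 572.8 and 147.5. The gene upward was Atf5 (2.82), which encodes a factor related to ATF4 and was at 46.7 FPKM in FLAG and 335.8 in FLAG-CACUL1, compared with 159.1 in sh-Luc and 97.3 in sh-CACUL1 cells. Slc38a2, a neutral amino acid transporter, had a ratio of 0.77.

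With knockdown 7 of the 27 were past 2-fold downward (16.4% of all genes) and 1 upward (4.94%), with a median of -0.63 against -0.30 for all genes. After median-of-ratios scaling the counts were 5 (7.45% of all genes) and 4 (9.41%), with a median of -0.22. Lowest were Aldh1l2 (-2.24) and Mthfd1l (-2.14), enzymes of mitochondrial folate metabolism, and highest were Cebpg (1.31), a C/EBP partner of ATF4 at 13.1 FPKM in sh-Luc and 34.0 in sh-CACUL1 cells, and Slc1a5 (0.94). The sign of Slc1a5 thus differed between overexpression and knockdown. Past 2-fold downward in both were Atf3, Ppp1r15a, Mthfd1l, Aldh1l2 and Slc1a4 as deposited (0.802% of all genes), and Mthfd1l, Aldh1l2 and Slc1a4 after scaling (0.588%). Atf3 was low in the hairpin lines, at 1.77 FPKM in sh-Luc and 0.352 in sh-CACUL1 cells. Ppp1r15a encodes GADD34, the stress-induced subunit of the eIF2 phosphatase, and was at 75.3 FPKM in FLAG and 31.2 in FLAG-CACUL1, compared with 24.6 in sh-Luc and 10.2 in sh-CACUL1 cells, the order of Ddit3 and Trib3. In FLAG against sh-Luc 12 of the 27 were past 2-fold upward (8.58% of all genes) and 3 downward (12.4%), with a median of 0.63 against -0.18.

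Upstream of ATF4, 15 genes were listed, for eIF2 kinases, eIF2 and eIF2B subunits and the phosphatase subunit Ppp1r15b, together with Impact and Gcn1l1. They had a median of 0.33 with overexpression and -0.40 with knockdown (0.19 and 0.03 after scaling). With overexpression 2 were past 2-fold upward (7.51% of all genes) and 1 downward (7.22%), and with knockdown 0 upward (4.94%) and 2 downward (16.4%). Of the kinases, Eif2ak1, Eif2ak3 (PERK) and Eif2ak4 (GCN2) were within 2-fold in both comparisons, and Eif2ak2 (PKR) was at 1.13 and -1.41, or 0.99 and -0.97 after scaling. Impact, whose product inhibits GCN2, was at 19.8 FPKM in FLAG and 94.2 in FLAG-CACUL1, compared with 9.75 in sh-Luc and 16.9 in sh-CACUL1 cells. Its ratios were 2.19 and 0.74, and 2.06 and 1.17 after scaling, so it was past 2-fold upward in both comparisons after median-of-ratios scaling, and also after quantile normalization (0.428% of all genes on either scale). Eif2b2, a subunit of the exchange factor eIF2B, was past 2-fold downward in both (-1.13 and -1.57, and -1.27 and -1.12 after scaling). Of all genes 0.802% were so as deposited and 0.588% after scaling. Ppp1r15b, the constitutive phosphatase subunit, was at -0.72 and 0.25. Phosphorylation of eIF2 was not measured.

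The cytosolic aminoacyl-tRNA synthetases, many of which are ATF4 targets, were flat with overexpression. Of 20 genes 0 were past 2-fold, where 14.7% of all genes were, the median was -0.03, and the extremes were Yars (-0.70), Cars (-0.58), Tars (0.66) and Hars (0.67). With knockdown Aars (-1.65) and Sars (-1.36) were past 2-fold downward, where 16.4% of all genes were, the median was -0.59, and Hars (-0.06) and Qars (-0.03) were nearest to 0. After scaling Sars was at -0.89, and the median was -0.13.

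The IRE1 and ATF6 arms of the unfolded protein response, which run in parallel to PERK and ATF4 and supply chaperones and folding enzymes, were measured by 16 genes. With overexpression 3 of these were past 2-fold downward (Xbp1 at -1.44, Hspa5 at -1.11 and Dnajb9 at -1.03) and 1 was upward (Dnajc3 at 1.09), where 7.22% and 7.51% of all genes were. Creld2 was at 0.93 and the median was -0.48. With knockdown Dnajb9 (2.57) and Pdia4 (1.05) were past 2-fold upward and Ern1 (-1.25) downward (4.94% and 16.4% of all genes), with a median of 0.02. After median-of-ratios scaling 6 were upward (9.41% of all genes) and 0 downward (7.45%), with a median of 0.47 against -0.36 for the 10 genes. Sel1l, a component of the degradation machinery, was at -0.69 with knockdown and at -0.23 after scaling. Hspa5, the chaperone BiP, was at 1441.5 FPKM in FLAG and 669.6 in FLAG-CACUL1, compared with 386.5 in sh-Luc and 545.5 in sh-CACUL1 cells. Its level and that of Ddit3 were both highest in FLAG, but Hspa5 was above sh-Luc in sh-CACUL1, where Ddit3 was lowest. No difference between lists was tested.

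**Figure D5:**
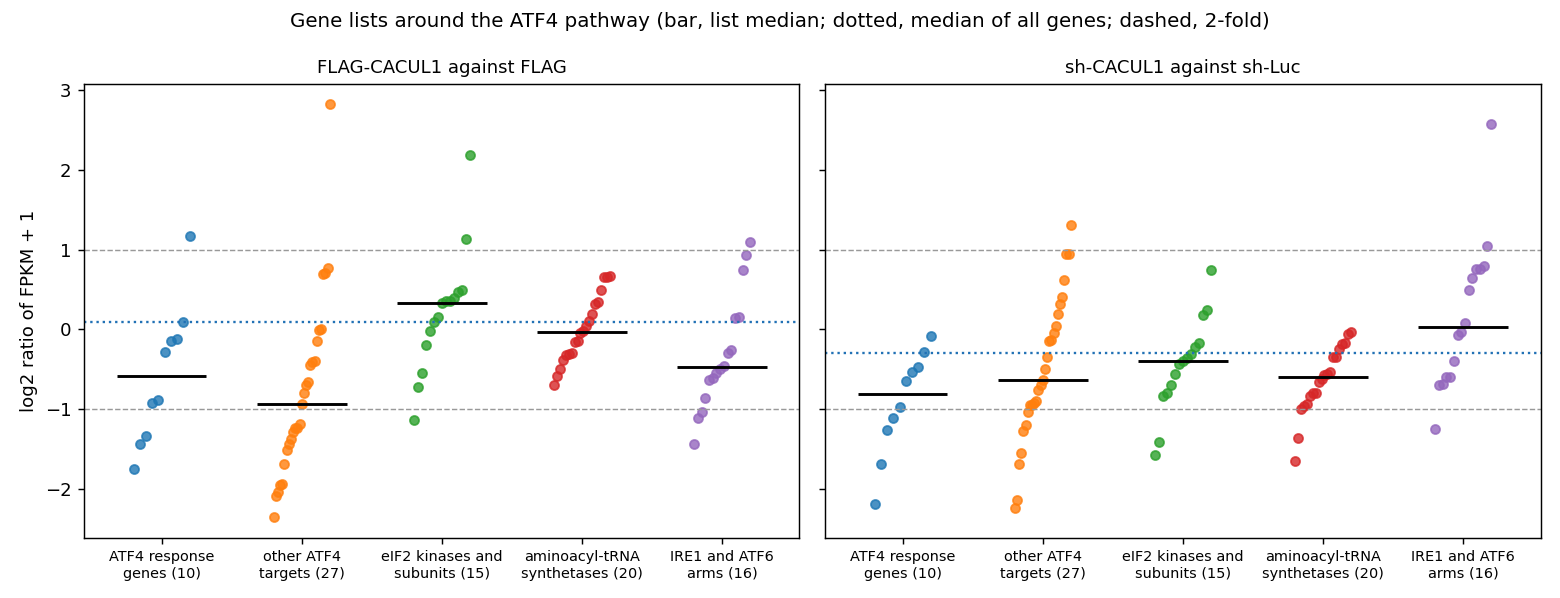
Log2 ratio of FPKM + 1 of each gene of the 10-gene set and of the 4 other lists, for FLAG-CACUL1 against FLAG and sh-CACUL1 against sh-Luc. Points are genes, black bars are list medians, and the dotted line is the median of all genes (0.09 and -0.30). The 10 genes (-0.58 and -0.81) and the other ATF4 targets (-0.93 and -0.63) had medians below it in both panels, as did the synthetases (-0.03 and -0.59).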

How the data were processed

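RNA-seq of 4 stable 3T3-L1 lines was analysed, with 1 sample per line. The authors deposited FPKM values for 13110 rows of RefSeq transcripts per sample. The submitters' processing notes name the build mm10, and the aligner and the program for FPKM are not given in the sources used here. Identifiers were joined to symbols through GENCODE M21 on GRCm38 (12911 rows) and a RefSeq table (144 rows). Rows sharing a symbol were summed (50 rows of 25 symbols), 47 rows kept their identifier and 8 rows with several symbols were kept apart, which left 13085 genes.

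Ratios were taken on log2(FPKM + 1), which understates changes of low genes. Fragments were estimated from the spacing of low FPKM values multiplied by transcript length. Of the low values used, 78.4% to 80.3% lay within 0.25 steps of a whole number. That tolerance covers a large part of each step, and the spacing was chosen for the best agreement with whole numbers. Part of this share is thus by construction. Counting intervals are exact binomial (Clopper-Pearson). Median-of-ratios factors were 0.956 for FLAG, 1.05 for FLAG-CACUL1, 1.17 for sh-Luc and 0.844 for sh-CACUL1. The 10 genes and the lists were chosen with earlier results of these data known. Genes named from a list were those with the 2 highest and 2 lowest ratios in each comparison with the own control, among genes at 1 FPKM or more in all samples. Eif2ak1, Eif2ak3, Eif2ak4, genes past 2-fold in both comparisons and those in the closing section were named after their values were seen. The scripts were tested on simulated data. Python 3.11.15, numpy 2.4.6, pandas 2.3.3, scipy 1.17.1 and matplotlib 3.10.9 were used.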

Additional observations from a re-analysis of the deposited data

How the results depend on the processing

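No paired analysis was possible because each line had 1 sample and no result came from a test. All 9 alternatives fixed for the analysis were run. Pseudocounts of 0.1 or none, both filters on low FPKM and the use of the highest row in place of the sum could turn no sign among the 30 ratios of the 10 genes to a control. A pseudocount common to both samples keeps the sign, and each of the 10 genes had 1 row and at least 6.22 FPKM in every line. Some counts past 2-fold did move. With either pseudocount choice they rose with knockdown from 4 to 5 for the 10 genes, 8 to 12 for the other ATF4 targets and 2 to 3 for the synthetases. With overexpression the other ATF4 targets rose from 14 to 16. At 1 FPKM or more in all samples they gave 10 and 6 of 21. Of the 9563 genes at that level 763 were upward and 693 downward with overexpression, and 437 and 1767 with knockdown. Median-of-ratios scaling turned 6 signs and quantile normalization 2. The count of the 10 genes past 2-fold with knockdown was 2 after quantile normalization and 2 after median-of-ratios scaling. That of the IRE1 and ATF6 genes was 5 and 6, and that of the synthetases 1 after median-of-ratios scaling. Over all genes 1178 were upward and 1084 downward with knockdown after quantile normalization, and 1231 and 975 after median-of-ratios scaling. With the other control the 10 genes gave counts of 2 (overexpression) and 7 (knockdown), and the other ATF4 targets 5 and 16. The IRE1 and ATF6 genes gave 0 and 8, the eIF2 genes 1 with overexpression and the synthetases 8 with knockdown. Of all 13085 genes 659 were then upward and 637 downward with overexpression, and 975 and 2016 with knockdown. The 10 genes split 1 upward and 1 downward with overexpression, and 1 and 6 with knockdown. The other ATF4 targets split 2 and 3, and 4 and 12. Their medians were -0.19 and -0.8, against -0.1 and -0.07 for all genes. With knockdown the IRE1 and ATF6 genes split 3 and 5, and the synthetases were all downward. The other control turned 5 of 20 signs. In FLAG-CACUL1 the log2 ratio turned to 0.35 for Trib3, -0.68 for Phgdh, 1.04 for Ddit3 and 0.50 for Chac1, and in sh-CACUL1 it turned to 1.32 for Phgdh. At a 3-fold cut-off the counts were 1 and 2 for the 10 genes, 7 and 3 for the other ATF4 targets, 1 and 0 for the eIF2 genes, 0 and 1 for the IRE1 and ATF6 genes, and 1 for the synthetases with knockdown, where a stricter cut-off passes fewer genes by construction. The share of all genes for the 3-fold cut-off and for the pseudocount choices is not given here, so those counts have no background. The cause of the other changes was not tested. The depths are estimates, and with 1 sample per line the variation between cultures is unknown.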

Other observations

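Genes of mitochondrial folate metabolism, which lies downstream of serine synthesis, did not share a profile. They were picked out after their values were seen, and the values are a description. Aldh1l2 was at 118.0 FPKM in FLAG and 29.9 in FLAG-CACUL1, compared with 17.5 in sh-Luc and 2.92 in sh-CACUL1 cells, and Mthfd1l was at 50.4, 18.9, 12.1 and 1.97. Both had the order of Ddit3 and Trib3. Mthfd2, which catalyses an earlier step of the same pathway, was at 36.1, 27.2, 43.8 and 67.7 and so was highest in sh-CACUL1. Shmt2, which passes the carbon of serine to folate, was at 29.1, 48.2, 63.9 and 21.1.

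Atf3, a stress-induced repressor related to ATF4, was at 10.2 FPKM in FLAG and 1.19 in FLAG-CACUL1, compared with 1.77 in sh-Luc and 0.352 in sh-CACUL1 cells. Vldlr, a lipoprotein receptor and ATF4 target, was at 28.1, 8.05, 2.46 and 0.822. Both were highest in FLAG and lowest in sh-CACUL1. Slc7a11, the cystine transporter, was at or below 2.60 FPKM in all lines.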
